A study of Mus musculus with 54 samples.

Results

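The MHC class II presentation genes followed here are H2-Aa, H2-Ab1, H2-Eb1, Cd74, Ciita, H2-DMa and H2-DMb1. They are the 7 of 33280 genes in the count tables that carry these symbols, and all 7 were counted in every one of the 3 tables. Their RNA was measured by bulk RNA sequencing of macrophages sorted from mouse brain without choroid plexus, in 54 libraries that form 18 groups of 3 mice each. Microglia (MG) are the macrophages of the brain tissue itself, and subdural CNS-associated macrophages (sdCAMs), sorted as CD206+ cells, are those of the leptomeninges and of the spaces around blood vessels. BLZ945, an inhibitor of the CSF-1 receptor, empties both compartments for a time, and the comparisons ask how cells that refilled them respond to lipopolysaccharide (LPS, a component of bacterial walls) given 8 weeks later.

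Wild-type (WT) mice were C57BL/6JCrl, and Ccr2-deficient mice (Ccr2KO, marked Ccr2-/- in the plots) carried the B6.129S4-Ccr2tm1Ifc/J allele, which removes the chemokine receptor that monocytes need to leave the bone marrow. In each of these genotypes, MG and sdCAMs came from mice that were untreated and then given PBS, given vehicle (CTL) and then LPS, or given BLZ945 and then LPS, and all were killed 12 h after the injection. A vehicle and PBS group was not among them, so every comparison of LPS with untreated mice also differs by the vehicle gavage. The third set was reporter mice, Ccr2CreERT2/CreERT2:R26tdT/tdT, in which tamoxifen given after BLZ945 switches on tdTomato in cells that express Ccr2 at that time and in their progeny. All reporter mice had received BLZ945 and then PBS or LPS, and their MG, tdT+ sdCAMs and tdT- sdCAMs were sequenced apart. Libraries with the same mouse number come from the same animal, so MG and sdCAMs are paired by mouse. In such bulk libraries fewer cells of a type and less RNA per cell cannot be told apart.

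MHC class II molecules carry peptides from endocytosed proteins to the surface of antigen-presenting cells, where CD4+ T cells read them. H2-Aa and H2-Ab1 encode the alpha and beta chains of I-A and H2-Eb1 the beta chain of I-E. Cd74 is the invariant chain that fills the groove until the molecule reaches the endosome, H2-DMa and H2-DMb1 encode the DM dimer that exchanges its remnant for peptide, and Ciita is the class II transactivator. Resting MG are known for low class II levels and macrophages at the brain borders for higher and variable ones.

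Ciita does not bind DNA itself but joins factors that sit on the X and Y boxes of class II promoters, and the stretches that hold these boxes are printed for that reason. Windows around the start site were taken from RefSeq (GRCm38.p6) for H2-Aa, H2-Eb1, H2-DMa and H2-DMb1, that is for 4 of the 7 genes, from 250 bases before the start to 50 after it. The 3 stretches below show bases 120 to 31 before the start, 5′ to 3′ on the strand of the gene, with capitals marking the core of the X box (GCAAC, or GTAAC in H2-DMb1) and the Y box (CTGATTGG, or GTGATTGG in H2-DMb1). H2-Aa lies at chr17:34287854-34287943 on the minus strand, H2-Eb1 at chr17:34305747-34305836 on the plus strand and H2-DMb1 at chr17:34153071-34153160 on the plus strand.
H2-Aa: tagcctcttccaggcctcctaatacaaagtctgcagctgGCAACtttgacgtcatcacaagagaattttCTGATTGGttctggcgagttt
H2-Eb1: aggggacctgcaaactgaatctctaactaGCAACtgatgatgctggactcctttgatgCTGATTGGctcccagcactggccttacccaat
H2-DMb1: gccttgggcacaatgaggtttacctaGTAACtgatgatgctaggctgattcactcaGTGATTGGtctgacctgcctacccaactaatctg

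The X core begins 81, 91 and 94 bases before the start of H2-Aa, H2-Eb1 and H2-DMb1, and the Y box begins 30, 29 and 30 bases after it. Searched on both strands, GCAAC was present in 35.2% of all 32851 windows in the table, CTGATTGG in 4.10% and both in 1.58%. Boxes of these letters, X core before Y box and 29 or 30 bases apart, occurred in 10 windows (0.0304%), those of H2-Aa, H2-Eb1, H2-DMb1, H2-Oa, H2-Eb2, Drc3, Gm30431, Ift74, St8sia4 and Stard7. This pattern was written down after the windows had been read and is a description of their letters. H2-Eb1 and H2-DMb1 also share a run of 13 bases, AACTGATGATGCT, which begins inside the X core and which 3 windows of the table held, the other one being that of Slc39a10. The 2 windows of H2-DMa held no CTGATTGG.

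The libraries held 1705930 to 11330781 counts. Levels are given as scaled CPM, CPM being counts relative to the library's total, after correction for its composition by the TMM method. In 5 libraries, the 3 of WT sdCAMs after CTL and LPS, 1 of WT sdCAMs after BLZ945 and LPS and 1 of tdT- sdCAMs after LPS, that correction was under 0.6, and the acute-phase gene Saa3 alone took 21.0 to 35.8% of their counts. Summed over 6 MG markers, levels were 7155 to 41321 in MG and 357 to 9985 in sdCAMs, and over 6 sdCAM markers 0.196 to 21.9 in MG and 502 to 21941 in sdCAMs. The Ccr2KO libraries after LPS were placed by their characteristics and library names, since their titles name the other cell type, and these markers sided with the former. Ccr2 itself lay at 17.03 to 50.99 in untreated WT sdCAMs and at 2.33 to 5.21 in untreated Ccr2KO sdCAMs, while after CTL and LPS it was 0 to 0.755 in WT and 3.05 to 5.48 in Ccr2KO. Of the tdT- library of mouse 1 and the tdT+ library of mouse 7, both after LPS, the column names carry conflicting index numbers, and the fits of the reporter mice were repeated with these 2 columns exchanged and left out. The labels mark 6 WT sdCAM libraries for a correction of immediate early genes, which was not applied here.

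The class II chains and Cd74 separated sdCAMs from MG in every condition. In all 8 comparisons of sdCAMs with MG, H2-Aa, H2-Ab1, H2-Eb1 and Cd74 were higher in sdCAMs, with log2 fold changes between 2.48 and 11.82 and with no library of the sdCAM group at or below the highest MG library. Before LPS, untreated WT sdCAMs held H2-Aa at 840, 558 and 577 scaled CPM against 2.44, 0.611 and 2.25 in MG of the same 3 mice. The difference was a log2 fold change of 8.55 ± 0.97 (SE), with an adjusted p of 1.4e-05 in edgeR's quasi-likelihood test. Throughout, a gene is called when its Benjamini-Hochberg adjusted p is under 0.05 and its log2 fold change exceeds 1 in size.

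Cd74 reached 1464, 1126 and 1716 in untreated WT sdCAMs and 38.5, 22.2 and 21.5 in MG. This was a log2 difference of 5.72 ± 0.49 (adjusted p = 9.03e-07), and the corresponding value in untreated Ccr2KO mice was 5.25 ± 0.42 (adjusted p = 1.62e-08). In the reporter mice after PBS the sdCAM values, taken as the mean of tdT+ and tdT- cells, stood further above MG, at 9.11 for H2-Aa, 9.21 for H2-Ab1, 11.82 for H2-Eb1 and 8.12 for Cd74. The H2-Eb1 value there rests on 32 counts in 3 MG libraries, so its size depends on the small count added in the fit, and the ratio of the summed counts was 4239 with a 95% counting interval of 3003 to 6198.

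In untreated WT mice 5 of the 7 genes were called higher in sdCAMs, where 11.9% of all genes tested were. After CTL and LPS 4 were (19.1% of genes), and after BLZ945 and LPS again 4 (11.8%). The Ccr2KO mice gave 5 genes higher before LPS (8.53% of genes), 4 higher (9.29%) and 2 lower (9.08%) after CTL and LPS, and 4 higher (7.91%) and 2 lower (7.53%) after BLZ945 and LPS. Reporter sdCAMs had 5 higher after PBS (6.09%) and 4 higher (5.33%) and 2 lower (3.37%) after LPS. The median log2 difference over the members ran from 2.48 to 8.12 in these comparisons, beside medians over all genes tested of -0.12 to 0.09.

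**Figure D1:**
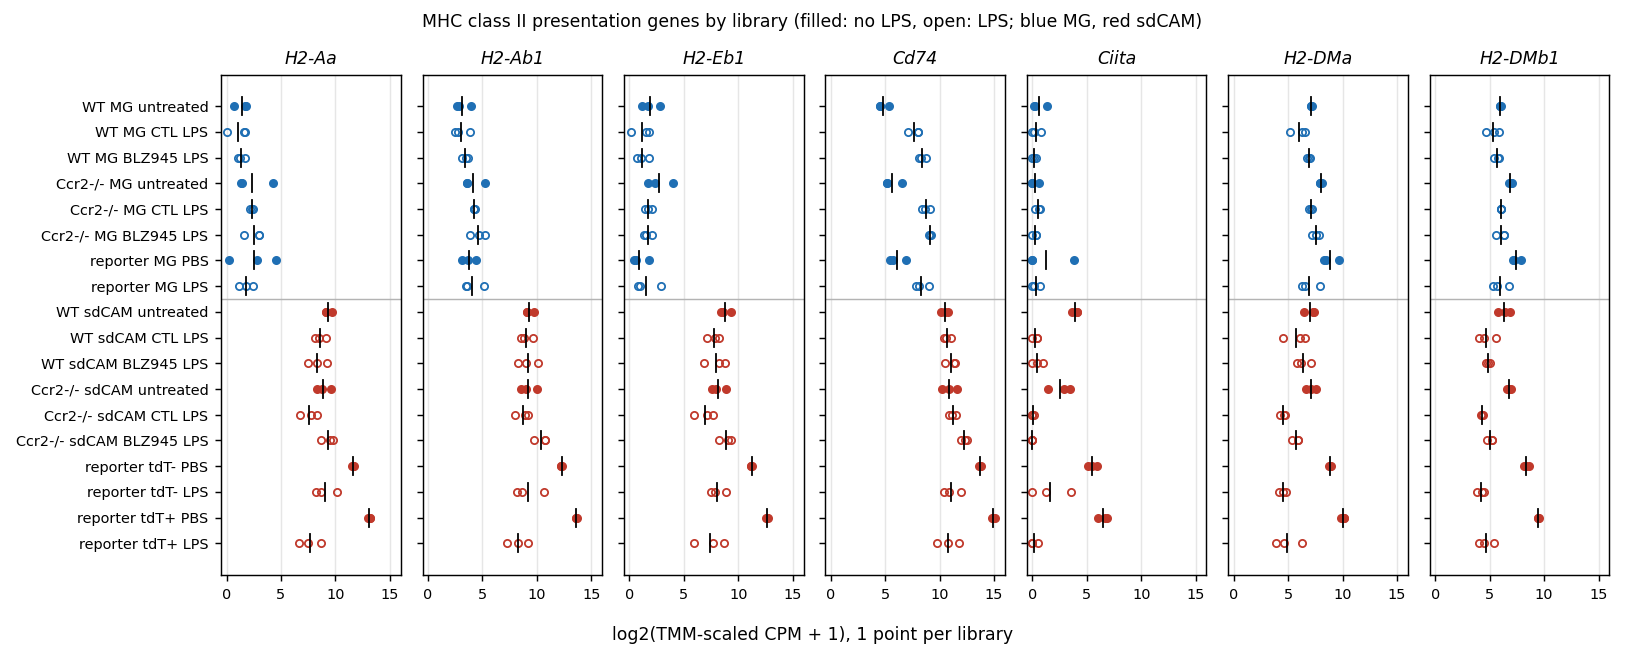
Level of each of the 7 genes in each of the 54 libraries, as log2 (scaled CPM + 1), by group, with 1 point per mouse and a bar at the group mean. The chains and Cd74 form separate bands for MG and sdCAMs, Ciita is near 0 in most groups, and H2-DMa and H2-DMb1 lie at like levels in untreated WT MG and sdCAMs.

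The genes of the loading step lay at like levels in both cell types of untreated WT mice. H2-DMa measured 160, 157 and 87.4 in untreated WT sdCAMs and 147, 136 and 134 in MG, and H2-DMb1 measured 85.2, 117 and 52.03 against 64.7, 61.99 and 59.8. These groups overlapped, and the log2 differences of -0.01 ± 0.46 and 0.48 ± 0.40 were not called (adjusted p = 0.996 and 0.428). MG markers summed to 4654, 6047 and 9985 in these sdCAM libraries, beside sdCAM markers at 13477, 8198 and 6563. The part of these MG markers' source in the comparison was not tested. In untreated Ccr2KO mice H2-DMa was lower in sdCAMs, at 186, 132 and 101 against 280, 245 and 247 in MG, without overlap. The log2 difference of -0.89 (adjusted p = 0.00577) missed the limit on size, and without sdCAM mouse 1m it was -1.15 and called (adjusted p = 0.00132). In WT mice after CTL and LPS the 2 genes were not called apart, but scaled by library totals alone they were lower in sdCAMs, by 1.93 and 2.33 on the log2 scale (adjusted p = 0.0028 and 0.00093). After LPS the 2 genes lay lower in sdCAMs than in MG of Ccr2KO mice, by 2.60 and 1.72 on the log2 scale after CTL (adjusted p = 1.01e-07 and 2.89e-06) and by 1.84 and 1.04 after BLZ945. The last of these, H2-DMb1 after BLZ945, lost its call without sdCAM mouse B2m or MG mouse B3m or B4f, when its difference was 0.88 to 0.96 in size. In reporter mice after LPS the differences of H2-DMa and H2-DMb1 were -2.22 and -1.58 (adjusted p = 0.00355 and 0.0063), but without the MG library of mouse 1 they were -1.53 and -1.03 with adjusted p of 0.0585 and 0.0999. Reporter H2-DMb1 after PBS was higher in sdCAMs by 1.43 (adjusted p = 0.0176), a call that ended without MG mouse 174 or 177. H2-DMb1 and its neighbour H2-DMb2, like H2-Eb1 and H2-Eb2, are close copies whose reads the counting could have divided, so their values carry that uncertainty.

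Ciita was the least abundant and is best read in raw counts. The untreated WT sdCAM libraries held 42, 41 and 26 counts of it and the untreated Ccr2KO ones 62, 83 and 15, while their MG libraries held 18 and 6 counts in sum. Scaled for depth, the ratio of sdCAMs to MG was 25.1 (95% counting interval 15.2 to 43.96) in WT and 30.5 (13.7 to 84.3) in Ccr2KO. The quasi-likelihood fit called both, at log2 fold changes of 4.60 (adjusted p = 0.0401) and 4.96 (adjusted p = 0.0292), whose size depends on the small count added to each library. The WT call ended without sdCAM mouse 9 or 14 or MG mouse 9, 14 or 15 (adjusted p of 0.0503 to 0.15), and the Ccr2KO call without sdCAM mouse 1m or 3m or MG mouse 1m or 5f (adjusted p of 0.0636 to 0.114). In the 24 MG libraries Ciita was at 0 in 8, and outside the reporter mice given PBS its highest MG count was 15. One MG library stood apart, that of reporter mouse 175 after PBS, with 130 counts while the other two MG libraries of that group had 0. With it the reporter sdCAMs were not called above MG (3.83, adjusted p = 0.111), and without it they were (adjusted p = 0.000386), at a size set by the small count added in the fit.

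**Figure D2:**
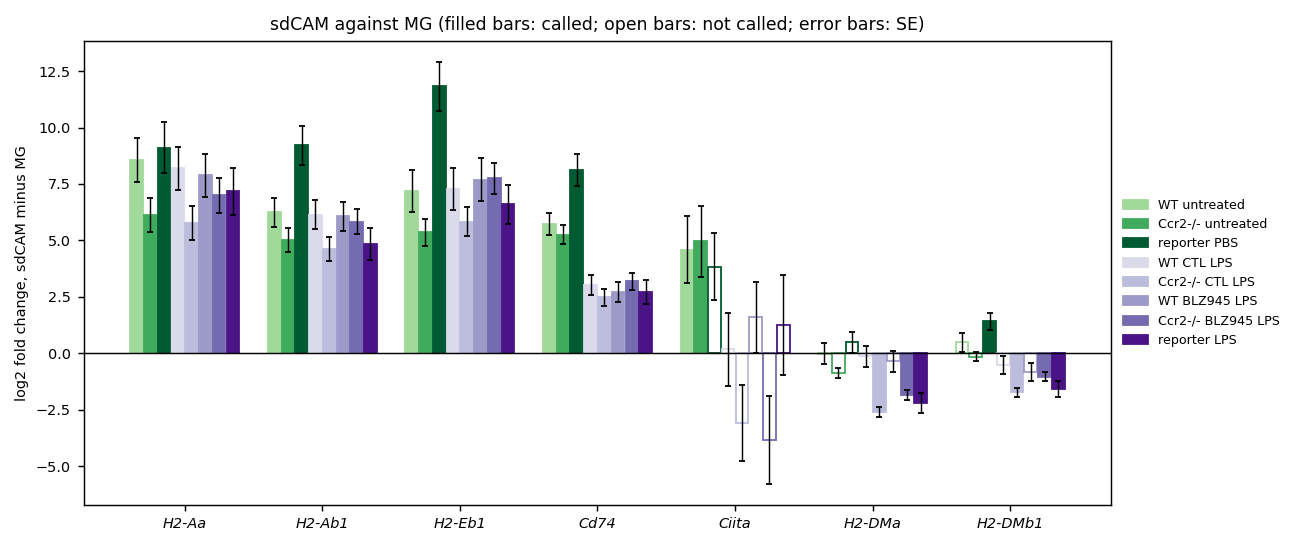
Bars of the log2 fold change of sdCAMs over MG (error bars, SE) for each of the 7 genes in the 8 comparisons of the 3 mouse sets, filled where called. The 3 chain genes and Cd74 lie between 2.48 and 11.82, and H2-DMa and H2-DMb1 between -2.60 and 1.43.

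By group mean, the order of the levels was the same at its top for every chain gene and Cd74, with tdT+ reporter sdCAMs after PBS first, tdT- reporter sdCAMs after PBS next and Ccr2KO sdCAMs after BLZ945 and LPS behind them. For Cd74 the libraries of these groups spanned 28444 to 34282, 12736 to 13954 and 3969 to 5931, so they did not overlap. Lower down the ranges ran into each other: 14 of the 17 pairs of neighbouring groups overlapped for each chain gene, H2-DMa and Ciita, 13 for H2-DMb1 and 12 for Cd74. Reporter and WT or Ccr2KO libraries differ in genotype, label batch and treatment at once, so these differences cannot be told apart. Ccr2 reached 142 to 281 in the 6 reporter sdCAM libraries after PBS. It made up most of the sum of 4 monocyte markers, which was 142 to 287 there against at most 79.1 in the other sdCAM groups. In these libraries Chil3 was at 0 in both gates and Ly6c2 at 0 in tdT+ cells. The part of these markers' source in the levels was not tested.

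In MG, Cd74 rose after LPS in WT and Ccr2KO mice, and no chain gene was called in any mouse set. WT MG held Cd74 at 38.5, 22.2 and 21.5 when untreated and at 251, 134 and 250 after CTL and LPS, without overlap. The log2 fold change was 2.96 ± 0.31 (adjusted p = 3.75e-05), and in Ccr2KO MG, where levels went from 91.6, 34.3 and 33.8 to 396, 333 and 544, it was 3.02 ± 0.33 (adjusted p = 1.1e-05). Reporter MG gave 52.6, 121 and 41.9 after PBS and 501, 273 and 221 after LPS, again apart, but the fold change of 2.15 ± 0.57 was not called (adjusted p = 0.119). Without mouse 175, the library with the Ciita counts, it was 2.81 with an adjusted p of 0.0215. That library also held the MG marker P2ry12 at 790, beside 7859 and 9829 in mice 174 and 177 and 380 to 970 in reporter MG after LPS. Its sum of 6 MG markers was 29753, beside 33557 and 40184.5 in mice 174 and 177.

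The chains of MG stayed low. H2-Aa measured 2.44, 0.611 and 2.25 in untreated WT MG and 1.99, 0 and 2.14 after CTL and LPS, and H2-Ab1 14.9, 5.39 and 6.02 against 13.3, 4.49 and 5.91. Both sets overlapped, at log2 fold changes of -0.35 and -0.14 (adjusted p = 0.818 and 0.844). In Ccr2KO MG the library of mouse 1m had H2-Aa at 18.5 beside 1.63 and 1.54 in the other two. With it the LPS difference of H2-Aa was -0.84 (adjusted p = 0.45), and without it 1.33 (adjusted p = 0.148), so the sign of that uncalled value rests on 1 library. The third chain, H2-Eb1, stood at -1.61 in Ccr2KO MG, not called. It was called lower there by DESeq2 (adjusted p = 0.0408), without the low-count filter (0.0311) and without untreated mouse 5f (-2.02, adjusted p = 0.0301). In reporter MG it stood at 1.26, not called, on 79 counts after LPS and 32 after PBS.

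H2-DMa and H2-DMb1 lay lower in MG after LPS. WT H2-DMa went from 147, 136 and 134 to 34.6, 94.3 and 76.1, a log2 fold change of -1.01 ± 0.28 (adjusted p = 0.016) just past the limit, and the call ended without CTL mouse 1 (-0.69) or untreated mouse 9 (adjusted p = 0.0513). Ccr2KO MG went from 280, 245 and 247 to 137, 141 and 119, with no overlap and a small spread. The fold change there, -0.93 ± 0.17 (adjusted p = 0.000689), fell short of the size limit, as did -0.89 ± 0.19 for H2-DMb1 (adjusted p = 0.00209).

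Called after LPS were thus 1 gene higher (9.08% of all genes tested in WT MG) and 1 lower (7.65%) in WT MG, 1 higher in Ccr2KO MG (10.5%) and none in reporter MG (1.08% in either direction). In reporter MG 3 of the 6 members tested had an unadjusted p under 0.05, as did 1510 of all 10882 genes tested, and DESeq2 called 2 members. Over all genes, the alternative settings, DESeq2 among them, called 111 to 853 there. Ciita was too low in MG to be tested. The members' median log2 fold change in MG was -0.48 in WT, -0.86 in Ccr2KO and -0.52 in the reporter, where the medians of all genes were 0.02, 0.00 and 0.03.

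**Figure D3:**
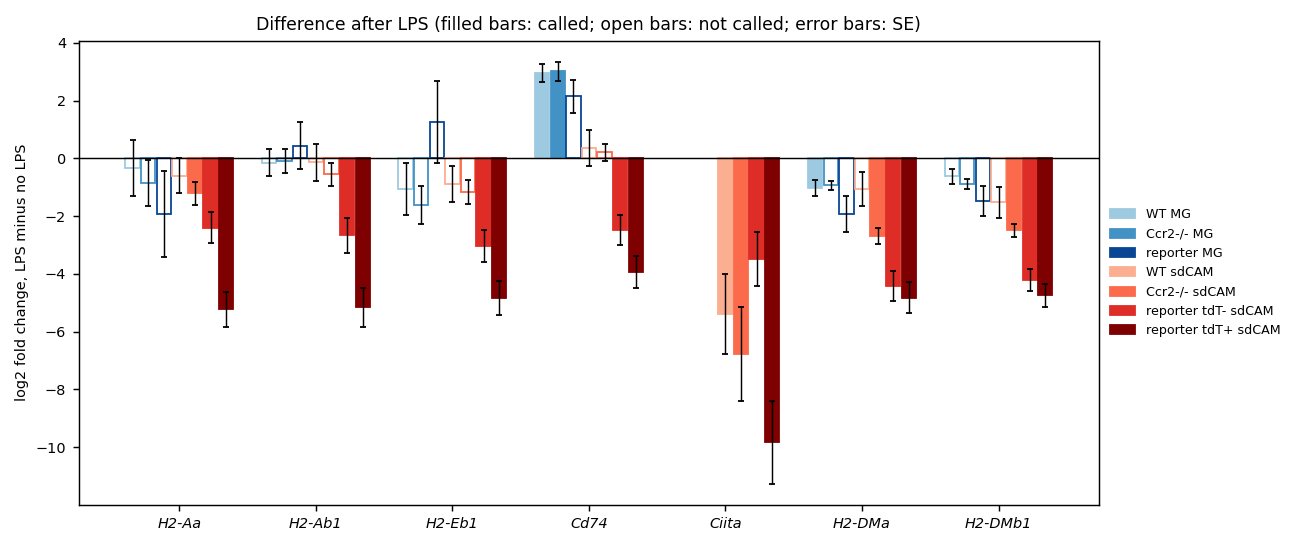
Bars of the log2 fold change after LPS (error bars, SE) of each of the 7 genes in MG and sdCAMs of the 3 mouse sets, filled where called, with Ciita in sdCAMs only. Cd74 is above 2 in all 3 MG sets, and every gene is below -2 in both reporter sdCAM gates.

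In sdCAMs the response to LPS ranged from 1 called gene in WT to all 7 in the reporter mice. WT sdCAMs lost Ciita: 16.3, 16.6 and 11.4 scaled CPM became 0.378, 0 and 0.307, that is 109 counts against 2, a ratio of 50.3 (95% counting interval 13.6 to 421). The fit called it (adjusted p = 0.0436) but lost it without any 1 of the 6 libraries (adjusted p of 0.11 to 0.163). It was the only gene called, 2.62% of all genes being lower. H2-Aa in these mice measured 840, 558 and 577 before and 353, 284 and 548 after LPS, with all 3 libraries below the lowest untreated one, yet its log2 fold change of -0.60 ± 0.60 was not called (adjusted p = 0.578). Cd74 went from 1464, 1126 and 1716 to 1370, 1531 and 2067, overlapping, with a log2 fold change of 0.36 ± 0.63. H2-DMb1 went from 85.2, 117 and 52.03 to 15.1, 46.6 and 21.8, apart but not called (-1.52 ± 0.53, adjusted p = 0.107).

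These WT values depend on how the libraries are scaled, since the 3 libraries after LPS are those in which Saa3 took 23.0 to 35.8% of counts. Scaled by library totals alone, 4 genes were called lower (24.5% of all genes), H2-Eb1 at -2.25, Ciita at -6.68, H2-DMa at -2.45 and H2-DMb1 at -2.95. H2-Aa then stood at -1.98 (adjusted p = 0.0512) and Cd74 turned from 0.36 to -1.11, neither of them called. Markers of neutrophils summed to 359 to 3259 in these libraries against 0 to 94.2 in untreated WT sdCAMs, with Ly6g and Retnlg at 0 in both. MG markers summed to 4654 to 9985 in untreated WT sdCAMs and to 978 to 2081 after CTL and LPS. In WT MG themselves these sums were 25931 to 27389 and 7155 to 11040. The part of either marker set in the class II values was not tested.

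Ccr2KO sdCAMs had 4 genes lower after LPS (10.6% of all genes). H2-DMa went from 186, 132 and 101 to 22.8, 24.4 and 18.01 and H2-DMb1 from 123, 106 and 93.6 to 18.9, 20.5 and 17.9. The groups lay far apart, at -2.68 ± 0.28 (adjusted p = 1.56e-05) and -2.49 ± 0.23 (adjusted p = 6.15e-06), and both calls held without each library in turn. Ciita fell from 160 counts to 1, a ratio of 150 with a counting interval of 26.6 to 5966 (adjusted p = 0.0101, and 0.0532 without untreated mouse 3m). H2-Aa measured 753, 442 and 308 before and 219, 323 and 105 after, with overlap, and its fold change of -1.21 ± 0.41 (adjusted p = 0.0428) was lost without untreated mouse 1m or 3m or CTL mouse V1m or V4f. H2-Eb1 had a like value of -1.15 (adjusted p = 0.0576), which passed without untreated mouse 5f or CTL mouse V2m. Cd74 measured 3147, 1791 and 1171 before and 2298, 2943 and 1831 after, which overlapped (0.21 ± 0.30, adjusted p = 0.655).

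Dendritic cell markers, summed over 6 genes, ran at 429 to 628 in untreated Ccr2KO sdCAMs and at 76.4 to 162 after CTL and LPS, with Clec9a and Ccr7 at 0 in the former and Flt3 and Clec9a at 0 in the latter. In WT sdCAMs the same sums were 96.1 to 205 and 19.6 to 68.2. Most of these sums was Cd209a, which ran at 396 to 595 and 61.5 to 149 in the Ccr2KO groups and at 83.7 to 179 and 18.1 to 52.5 in the WT ones. Dendritic cells carry class II as well, and the part of these markers' source in the differences was not tested.

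All 7 genes fell in reporter sdCAMs given LPS, in tdT+ cells (5.82% of all genes lower), in tdT- cells (12%) and in their mean (12.2%). The PBS mice (174, 175 and 177) and the LPS mice (1, 5 and 7) carry numbers of different series. Their sdCAM columns are also named in different forms. Treatment and series coincide in the reporter mice, so the 2 cannot be told apart. In tdT+ cells H2-Ab1 stood at 12230, 12795 and 12874 after PBS and at 599, 150 and 313 after LPS. Cd74 stood at 28444, 31130 and 34282 against 3517, 864 and 1712. The log2 fold changes were -5.16 ± 0.68 (adjusted p = 0.000233) and -3.94 ± 0.55 (adjusted p = 0.000333), and no library of either gene came near the other group. The fold changes of H2-Aa and H2-Eb1 were -5.23 ± 0.60 and -4.83 ± 0.59 (adjusted p = 8.47e-05 and 0.000131).

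tdT- cells started lower. Their H2-Ab1 was 4905, 4827 and 5059 after PBS and 1657, 400 and 281 after LPS (-2.67 ± 0.61, adjusted p = 0.00433), and their Cd74 12736, 12899 and 13954 against 3946, 1805 and 1344 (-2.48 ± 0.52, adjusted p = 0.00221). The library of mouse 1 was the highest after LPS in each case, and it is the one whose column index conflicts. Without it the log2 fold changes were -3.90 for H2-Ab1 and -3.12 for Cd74, and all 7 genes were still called.

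The loading genes of both gates ended at overlapping levels on this scale. H2-DMb1 went from 689, 720 and 705 to 15.5, 41.4 and 21.3 in tdT+ cells (-4.74 ± 0.40) and from 280, 317 and 379 to 21.2, 13.6 and 18.2 in tdT- cells (-4.21 ± 0.39). H2-DMa behaved likewise, from 945, 1086 and 1143 to 22.8, 74.7 and 13.3 in tdT+ cells (-4.82 ± 0.54). Its highest value after LPS, that of tdT+ mouse 5, came with MG markers at 9660 in that library, beyond every other reporter sdCAM library. Without it all 7 genes remained called in tdT+ cells, with fold changes from -8.90 for Ciita to -3.60 for Cd74. The overlap of the gates depends on the scaling, since the TMM factors after LPS were 0.470 to 0.7004 in tdT- and 1.18 to 1.30 in tdT+ libraries. In plain CPM, H2-DMb1 after LPS was 18.4 to 53.8 in tdT+ and 6.40 to 13.5 in tdT- cells, and H2-DMa 15.60 to 96.9 and 10.4 to 15.57, both without overlap.

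Ciita went from 588, 1014 and 959 counts to 1, 0 and 0 in tdT+ cells, a ratio of 1189 (counting interval 213 to 46982), and from 457, 344 and 563 to 34, 0 and 3 in tdT- cells, a ratio of 11.6 (8.37 to 16.5). The tdT- library of mouse 1 thus held 34 of the 37 counts left. Over the 3 mouse sets Ciita was at 0 in 10 of 18 sdCAM libraries after LPS and in 0 of 12 without LPS. The calls of all 7 genes in each gate held without each library in turn and with the 2 conflicting columns exchanged or left out. With the exchange the log2 fold changes in tdT+ cells ran from -4.79 for H2-DMa to -3.49 for Cd74 and in tdT- cells from -6.99 for Ciita to -3.03 for Cd74. With the omission they ran from -9.49 to -3.84 and from -6.44 to -3.09, for the same 2 genes, Ciita and Cd74.

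Marker sums moved in these mice too. Dendritic cell markers went from 383 to 556 after PBS to 163 to 197 after LPS in tdT- cells and from 71.5 to 133 to 28.6 to 111 in tdT+ cells. Within the sum of tdT- cells Cd209a went from 334 to 485 down to at most 1.46, while Ccr7, a mark of migrating dendritic cells, went from at most 14.99 up to 149 to 174. Monocyte markers went from 142 to 287 down to at most 79.1 over both gates, mostly through Ccr2, which went from 142 to 281 down to at most 56.2. Neutrophil markers were at 0 in tdT- cells after PBS and at 571 to 2233 after LPS, and in tdT+ cells they were at most 1.38 and then 8.31 to 47.2, with Ly6g and Retnlg at 0 throughout. The part of these markers' source in the fall of the class II genes was not tested.

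Whether LPS acted differently on MG and sdCAMs was tested as an interaction in each mouse set. Cd74 passed in all of them, with a term (change in sdCAMs minus change in MG, log2) of -2.70 in WT, -2.77 in Ccr2KO and -5.39 in reporter mice. Called lower were 1 gene in WT (0.891% of all genes), 4 in Ccr2KO (4%) and 5 in the reporter (1.21%). With the mouse as a block, the WT term for Cd74 was -2.69 with an adjusted p of 0.0702, so this call ended, and the Ccr2KO mice kept 3 genes, losing Ciita (adjusted p = 0.0553). In the reporter the 5 genes were H2-Ab1, H2-Eb1, Cd74, H2-DMa and H2-DMb1, and H2-Aa at -1.94 was not called (adjusted p = 0.404). The WT term for Cd74 also missed the threshold without MG CTL mouse 1 or 6, sdCAM CTL mouse 4 or untreated MG mouse 14 or 15, with values of -2.63 to -2.53. The reporter term for H2-Eb1 was -3.65 (adjusted p = 0.058) without MG mouse 1 after LPS, and that for H2-DMa -2.05 (adjusted p = 0.119). The H2-DMa term also missed the threshold with the 2 conflicting columns exchanged (-2.73, adjusted p = 0.0707) or left out (-2.47, adjusted p = 0.0751).

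Cells that had repopulated after BLZ945 were compared with CTL cells after LPS, a comparison that shares its CTL libraries with the LPS comparisons above. No member was called in WT MG (0.0763% of genes in either direction), WT sdCAMs (0%), Ccr2KO MG (0.0173%) or Ccr2KO sdCAMs (0%). With edgeR, 2 members in WT MG, 0 in WT sdCAMs and 1 in Ccr2KO MG had an unadjusted p under 0.05. Over all genes the numbers were 776, 758 and 769. DESeq2 called 0 members in each. In WT MG, Cd74 measured 251, 134 and 250 after CTL and 312, 438 and 279 after BLZ945, without overlap (0.71, adjusted p = 0.729). The largest values were those of Ccr2KO sdCAMs, where 6 members had an unadjusted p under 0.05 and DESeq2 called 2. Over all genes, the alternative settings, DESeq2 among them, called 0 to 145 in that comparison. The number that DESeq2 alone called over all genes is not given, so its member calls have no share beside them.

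In these Ccr2KO sdCAMs H2-Ab1 measured 467, 595 and 250 after CTL and 1720, 1700 and 844 after BLZ945. Cd74 measured 2298, 2943 and 1831 against 5931, 5069 and 3969. H2-DMa measured 22.8, 24.4 and 18.01 against 38.9, 59.8 and 57.9. Every BLZ945 library lay above every CTL library for these genes, and so it was for H2-Aa, H2-Eb1 and H2-DMb1, but not for Ciita. The share of all genes separated in this way was not counted. Log2 fold changes were 1.67 ± 0.40 for H2-Ab1, 1.06 ± 0.30 for Cd74 and 1.24 ± 0.27 for H2-DMa, with adjusted p of 0.307, 0.376 and 0.222, while 998 of all genes had an unadjusted p under 0.05 and 0 were called. DESeq2 called Cd74 (adjusted p = 0.0334) and H2-DMa (adjusted p = 0.00535). The dendritic cell marker sums moved the other way, from 76.4 to 162 after CTL to 15.99 to 28.7 after BLZ945, again mostly through Cd209a, at 61.5 to 149 and 3.02 to 23.2. The same comparison in WT sdCAMs gave values from -0.20 to 0.50, all overlapping, after TMM factors of 0.344 to 0.494 in CTL and 0.369 to 1.28 in BLZ945 libraries. Scaled by library totals alone they ran from 0.75 for H2-Aa to 1.69 for Ciita, with 0 members called. In plain CPM the BLZ945 libraries lay above the CTL ones without overlap for H2-Ab1 (400 to 638 against 137 to 387) and H2-DMa (49.8 to 88.4 against 7.40 to 32.8). The test of the difference between genotypes called no member (0% of genes). In edgeR 2 members and 1332 of all genes had an unadjusted p under 0.05. DESeq2 called 0 members (3 with an unadjusted p under 0.05).

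Between genotypes, no member was called in untreated MG (5.52% of genes in either direction) or untreated sdCAMs (9.5%). MG of Ccr2KO mice lay higher in H2-DMa by 0.87 ± 0.24 (280, 245 and 247 against 147, 136 and 134) and in H2-DMb1 by 0.92 ± 0.23 (121, 107 and 128 against 64.7, 61.99 and 59.8), without overlap. Their adjusted p were 0.0182 and 0.0114, and only the limit on size kept them from being called. In MG 5 of 6 members had an unadjusted p under 0.05, as did 3839 of all 12423 genes tested, and DESeq2 called 0 members. The values of H2-Aa, H2-Ab1 and Cd74, which were 2.00, 1.14 and 0.94, became -0.19, 0.32 and 0.28 without Ccr2KO mouse 1m. Cd74 was called without WT mouse 9 (1.26, adjusted p = 0.0358) or Ccr2KO mouse 3m or 5f (1.17 and 1.16, adjusted p = 0.041 and 0.0452), and H2-Ab1 without WT mouse 9 (1.75, adjusted p = 0.04). In sdCAMs 0 members had an unadjusted p under 0.05, DESeq2 called 0 and the members' median was near 0. Each genotype has its own count table, so genotype and table cannot be told apart. The response to LPS was not called different between genotypes for any member in MG (0% of genes) or sdCAMs (0%), nor that to BLZ945 in MG (0%). The members with an unadjusted p under 0.05 numbered 0, 1 and 0 in edgeR, beside 503, 1792 and 494 of all genes. DESeq2 gave 0, 1 and 0 such members and called 0 in all 3.

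Among reporter sdCAMs after PBS, the tdT+ libraries held more class II RNA than the tdT- libraries of the same mice. The main fit did not call this difference for any member. H2-Aa measured 8168, 9081 and 9066 in tdT+ cells of mice 174, 175 and 177 and 3348, 3035 and 3147 in their tdT- cells. H2-Eb1 measured 6024, 6253 and 6705 against 2373, 2335 and 2450. For all 7 genes every tdT+ library lay above every tdT- library, with log2 differences from 1.03 for Ciita to 1.46 for H2-Aa and a median of 1.24 beside 0.00 for all genes. How many of all genes were separated in this way was not counted.

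The test depends on which libraries share the estimate of spread. In the fit of all 12 reporter sdCAM libraries no member was called (0.0236% of genes in either direction), with adjusted p between 0.737 and 1, and DESeq2 called 0. An unadjusted p under 0.05 was reached by 6 of the 7 members and by 566 of all 12708 genes tested. In a fit of the 6 libraries after PBS alone, chosen after seeing the data, all but Ciita were called higher, where 0.0717% of genes were. H2-Aa then had 1.46 ± 0.08 (adjusted p = 0.000227) and Cd74 1.24 ± 0.08 (adjusted p = 0.000447), the same sizes with a smaller error, and with the mouse as a block the same 6 genes were called. Dendritic cell markers lay in the opposite order, with sums of 71.5 to 133 in tdT+ and 383 to 556 in tdT- cells, of which Cd209a made up 52.4 to 114 and 334 to 485. Monocyte markers summed to 230 to 286 in tdT+ and 142 to 287 in tdT- cells, of which Ccr2 made up 230 to 281 and 142 to 194.

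After LPS all 7 genes overlapped between the gates on the TMM scale. H2-Aa measured 418, 103 and 182 in tdT+ cells and 1113, 418 and 288 in tdT- cells, and within each mouse as labelled the tdT- library was the higher one on this scale, though in plain CPM not in mouse 7 (202 against 214). The tdT+ library of mouse 5, at 103, held MG markers at 9660 and sdCAM markers at 502. In tdT+ mice 1 and 7 these sums were 620 and 706 for MG and 2965 and 3695 for sdCAM markers. The part of this difference in the H2-Aa comparison was not tested. The log2 difference of H2-Aa, -1.37, was not called, but with the mouse as a block it was (-1.37, adjusted p = 0.0158), and so it was by DESeq2 (-1.50, adjusted p = 0.0232). Both of these fits took the 2 conflicting columns as labelled. With the columns exchanged or left out, no member was called between the gates after LPS. The exchange together with the block also called none, so the H2-Aa difference depends on the labels of these columns. H2-DMa and H2-DMb1, at 0.78 and 0.58 and not called, became 1.88 and 1.61 when scaled by library totals alone and were then called higher in tdT+ cells (adjusted p = 0.00961 and 0.00737). In these libraries neutrophil markers summed to 571 to 2233 in tdT- and 8.31 to 47.2 in tdT+ cells, and their part in the comparison was not tested. Only Ciita was called, lower in tdT+ cells (6.9% of genes), with 1 count against 37, and its adjusted p of 0.0329 became 0.393 without tdT- mouse 1, 0.151 without tdT+ mouse 5 and 0.11 without tdT+ mouse 7. The interaction of tdT state and LPS was called for H2-Aa (-2.83 ± 0.73, adjusted p = 0.0341) and Ciita (-6.36, adjusted p = 0.0456), where 4.06% of genes were lower, and for 4 genes with the mouse as a block. The call of H2-Aa ended without tdT- mouse 1 (-2.03, adjusted p = 0.0769), tdT+ mouse 7 or any 1 of the 6 libraries after PBS, and that of Ciita without tdT- mouse 1 (-3.42, adjusted p = 0.279) and in 9 other fits that left out 1 library. With the 2 conflicting columns exchanged neither was called, H2-Aa standing at -0.58 and Ciita turning to 2.33, and with both left out they were -1.90 and -3.05 (adjusted p = 0.168 and 0.394).

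**Figure D4:**
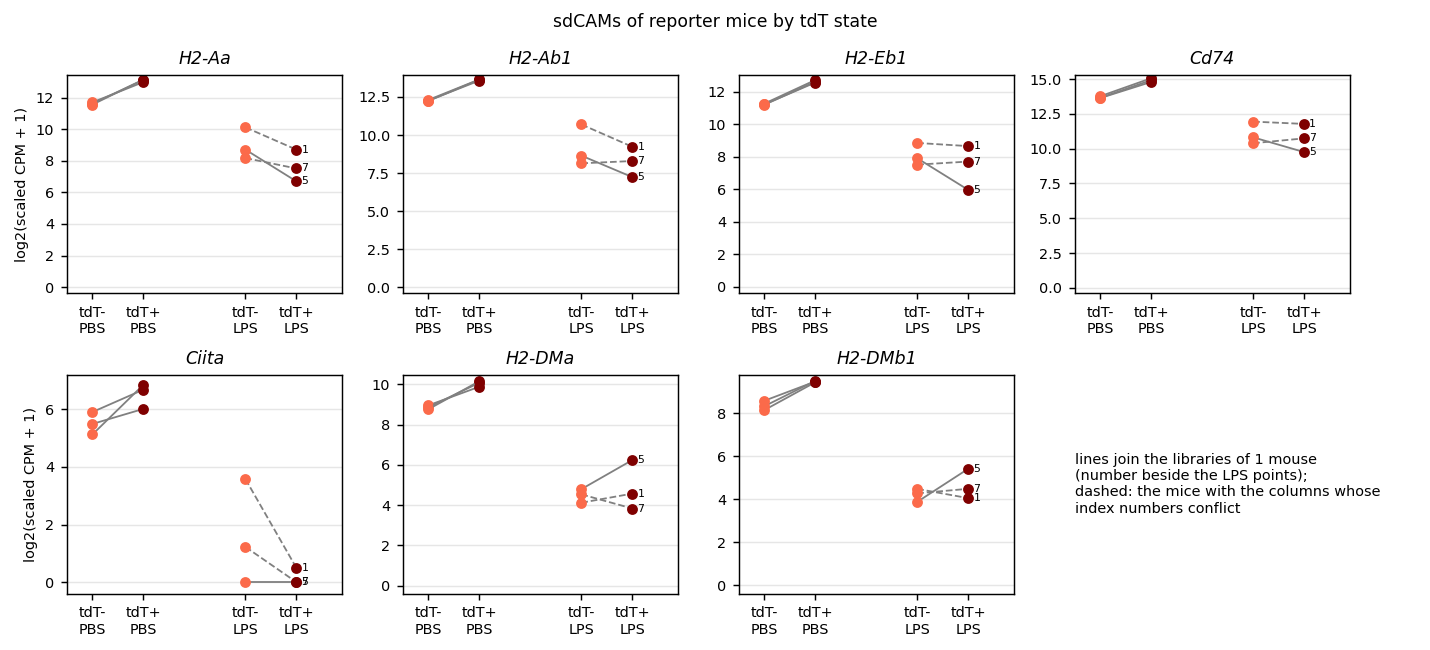
Level of each of the 7 genes as log2 (scaled CPM + 1) in tdT- and tdT+ sdCAMs of each reporter mouse after PBS or LPS, with lines joining the libraries of a mouse. After PBS every line rises towards tdT+, and after LPS the lines run in both directions, dashed for the 2 mice with a column whose index conflicts.

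The neighbours of the members in the same genome region went different ways. H2-Ob, which with H2-Oa forms the DO dimer that holds DM in check, was lower in sdCAMs than in MG in 6 of 8 comparisons and H2-Oa in 4, opposite in direction to the chains. Untreated WT MG held H2-Ob at 43.4 to 70.0 and sdCAMs at 2.84 to 15.7, a log2 difference of -2.80. H2-Ob fell after LPS in MG of WT (-2.43, adjusted p = 7.8e-05) and Ccr2KO mice (-1.74, adjusted p = 3.82e-05), and in the mean of reporter sdCAMs (-3.07, adjusted p = 0.00148). H2-DMb2 fell in Ccr2KO MG (-1.73) and in the reporter mean (-4.25). Of the 5 genes in that list, which also holds H2-Eb2 and H2-Ea, 3 were tested in most comparisons, and their median after LPS was -0.80 in WT MG, -1.73 in Ccr2KO MG and -3.07 in the reporter mean.

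Of the 7 factors known to bind class II promoters, Creb1 was lower after LPS in both MG sets and both sdCAM sets of WT and Ccr2KO mice, from -2.21 in WT sdCAMs to -1.01 in Ccr2KO MG. Rfx5, a subunit of the X box complex, was called lower in tdT- cells (-2.78, adjusted p = 0.0103) and in the reporter mean (-1.58). Nfya, of the Y box complex, was called lower in WT sdCAMs (-2.69) and higher in tdT+ cells (3.05) and the reporter mean (2.35). The median of the 7 was -0.27 in WT MG, -0.31 in WT sdCAMs and -0.88 in the reporter mean, beside 0.02, -0.08 and 0.07 for all genes.

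Among 8 genes of antigen processing and class II turnover, Ifi30, a thiol reductase of the endosome, rose after LPS in WT and Ccr2KO MG (1.19 and 1.22), as did Marchf1 (1.07 and 1.05), a ubiquitin ligase that removes class II from the surface. Marchf1 also rose in Ccr2KO sdCAMs (1.87), with Ctsl (1.33) and Sppl2a (1.41), the protease that clears the stub of Cd74. In the reporter mean the proteases Ctsb and Lgmn fell by 2.41 and 1.64 on the log2 scale. Their medians after LPS, from -0.32 to 0.31 in the 3 sets of MG and the sdCAM sets of WT, Ccr2KO and the reporter mean, compare with -0.08 to 0.07 for all genes.

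Of 7 genes that pass on interferon gamma, the main inducer of Ciita, Irf1 rose after LPS in WT MG (1.12) and Ccr2KO MG (1.70), in the same cells in which Cd74 rose and the chains were not called. In Ccr2KO sdCAMs Jak2 (1.80), Irf1 (1.06) and Socs1 (2.37), an inhibitor of the pathway, rose and the receptor subunit Ifngr1 fell by 1.01. The reporter mean had Ifngr1 lower (-1.83, adjusted p = 0.000183) and Irf1 lower (-1.14, adjusted p = 0.00719), and 0 of the 7 higher. Ifngr1 was also lower in sdCAMs than in MG in 6 of 8 comparisons.

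The members differed in how closely they ran together. Across the 54 libraries the log2 level of Cd74 ran with a Pearson r of 0.995 to the log2 sum of H2-Aa, H2-Ab1, H2-Eb1 and Cd74, H2-Ab1 with 0.957, H2-Aa with 0.936 and H2-Eb1 with 0.928, while Ciita had 0.611, H2-DMb1 0.175 and H2-DMa 0.017. The sum is led by its abundant genes and holds 4 of the members itself, and the libraries share the contrast of sdCAMs and MG, so these are descriptions. Within groups, as deviations from the group mean, the values were 0.986 for Cd74, 0.897 for H2-Ab1, 0.346 for Ciita and 0.107 for H2-DMa. Among the other 8621 genes with enough signal, those most like the sum in level were Adgre5 (0.918), Lyz2 (0.917), Sema4a (0.915), Plbd1 (0.904) and Apoe (0.903). By deviations they were Plbd1 (0.623), Zmiz2 (0.612), Il2rg (0.585), Adam33 (0.583) and H2-D1 (0.582), a class I gene.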

How the data were processed

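RNA of sorted MG and sdCAMs was amplified with SMARTer chemistry and made into Nextera XT libraries, which carry no molecular identifiers, so counting intervals cover counting error only. The authors deposited raw read counts per gene in 3 tables, for WT, Ccr2KO and reporter mice, and 0 columns were left unmatched to a sample. The submitters' processing notes name bcl2fastq 2.20, STAR 2.7.11a, featureCounts 2.0.8 and DESeq2 1.46.0; the genome build and the strand setting of the counting are not settled by the sources used here. The steps the authors describe after counting (removal of ribosomal, oxidative phosphorylation and pseudogenes, and ComBat-seq) were not applied to these values.

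The counts as deposited were fitted here in 11 models with edgeR 4.0.16 (filterByExpr, TMM, quasi-likelihood test, R 4.3.3, limma 3.58.1), which gave 32 comparisons. A gene was called at a Benjamini-Hochberg adjusted p under 0.05 over all genes tested with a log2 fold change beyond 1 in either direction. Tables and figures were made with Python 3.11.15, pandas 2.3.3, numpy 2.4.6, scipy 1.17.1 and matplotlib 3.10.9. The code of the fits was run on simulated data with less spread than the sdCAM fits had. That run does not show how often calls are right at the spread of the data.

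Groups were taken from the sample labels. The 3 mice of a group are separate animals. For 2 columns the index numbers conflict, and the Ccr2KO LPS titles name another cell type than the characteristics. Same-numbered MG and sdCAM libraries come from 1 animal and are therefore paired. Their deviations from the group means correlated at -0.127 to 0.330 over 36 pairs of libraries, above 0.1 in 15, and the fit with the mouse as a block is an alternative. Other alternatives were DESeq2 1.42.0, library totals, low-count rules, no fold limit, fits of only the compared libraries, the immediate early gene mark as a covariate, exchange or omission of the 2 columns and leaving out each library.

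Named are the 7 members, 4 lists of pathway genes and the 5 genes most like the members, taken from genes averaging 10 CPM or more, with 1 added before taking logs. The members and lists were chosen with earlier results of these data known. The values of 1 gene of these lists are not reported here.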

Additional observations from a re-analysis of the deposited data

Results flagged for a closer look

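The change after LPS differed between cell types or between tdT states, by a test of the interaction, for 12 values. Between tdT+ and tdT- sdCAMs the term was -2.83 for H2-Aa, whose fold changes were -5.23 in tdT+ and -2.39 in tdT- cells, and -6.36 for Ciita. Both rest on the libraries with conflicting column indexes, and neither was called with the 2 columns exchanged or left out.

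Between sdCAMs and MG the term for Cd74 was -2.70 in WT mice (adjusted p = 0.0291), -2.77 in Ccr2KO mice (adjusted p = 0.00125) and -5.39 in reporter mice (adjusted p = 0.000409). In the first 2 sets Cd74 was called higher in MG and not called in sdCAMs, and in the reporter it was not called in MG and called lower in sdCAMs. Ccr2KO mice also gave terms of -1.71 for H2-DMa (adjusted p = 0.00153), -1.57 for H2-DMb1 (adjusted p = 0.00108) and -8.03 for Ciita (adjusted p = 0.037). The Ciita term rests on a few counts, its size depends on the count added in the fit, and it missed the threshold in 10 of the fits that left out 1 library.

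Reporter mice gave terms of -4.37 for H2-Ab1 (adjusted p = 0.00585), -5.22 for H2-Eb1 (adjusted p = 0.00736), -2.71 for H2-DMa (adjusted p = 0.0361) and -3.01 for H2-DMb1 (adjusted p = 0.00354). That of H2-DMa missed the threshold without MG mouse 1 after LPS (-2.05, adjusted p = 0.119) and in 12 other fits that left out 1 library, as it did with the 2 columns exchanged (-2.73, adjusted p = 0.0707) or left out (-2.47, adjusted p = 0.0751).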

How the results depend on the processing

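Signs changed in 178 of 3447 values of the members under other settings, 174 of them called neither before nor after. The 4 called values that reversed were all of Ciita with the 2 columns exchanged: between tdT+ and tdT- cells after LPS to 3.35, or 3.05 with the mouse as a block, and in the interaction of tdT state and LPS to 2.33, or 2.04 with the block. With library totals only, the members called went from 2 to 1 for LPS in WT MG, from 1 to 4 for LPS in WT sdCAMs, from 1 to 3 for tdT state after LPS, from 2 to 1 for its interaction and from 1 to 2 for cell type by LPS in WT. DESeq2 called 2 in place of 1 for LPS in Ccr2KO MG, adding H2-Eb1. It called 2 in place of 0 for BLZ945 in Ccr2KO sdCAMs and for LPS in reporter MG. For tdT state after LPS it called 2 in place of 1. Without a low-count filter the counts were 0 (LPS, WT sdCAMs), 2 (LPS, Ccr2KO MG), 5 (BLZ945, Ccr2KO sdCAMs), 1 (LPS, reporter MG), 2 (tdT state after PBS), 3 (tdT state after LPS), 4 (its interaction) and 2 (genotype in MG), and the study's low-count rule gave 0 for LPS in WT sdCAMs. Without the fold limit 3 were called for LPS in Ccr2KO MG and 2 for genotype in MG. Fits of only the libraries compared, chosen after seeing the data for tdT state, gave 6 after PBS, with or without the block, and 0 after LPS (H2-Aa with the block). Exchange or omission of the 2 columns gave 0 for tdT state after LPS and 0 for the interaction, also with the block, a setting chosen after seeing the data. The replicate block of paired libraries gave 2 members for tdT state after LPS, 4 for its interaction and 0 for cell type by LPS in WT, took the calls of Ciita in untreated WT (sdCAMs against MG) and in cell type by LPS of Ccr2KO mice, and changed no sign of a called member. Calls also changed where counts moved little. DESeq2 lost H2-Aa for LPS in Ccr2KO sdCAMs (adjusted p = 0.0557) and gained H2-Ab1 in the interaction of tdT state and LPS (0.0137). Library totals gained H2-Eb1 for LPS in Ccr2KO sdCAMs (-1.31, adjusted p = 0.0348). Ciita in untreated WT sdCAMs against MG was lost with library totals (adjusted p = 0.0734), the immediate early gene mark as covariate (0.0886) and the study's low-count rule (0.0529). The exchange with the block lost H2-DMb1 of reporter sdCAMs against MG after PBS (adjusted p = 0.0618) and after LPS (0.0617), and with or without it H2-DMa of cell type by LPS (0.105 and 0.0707). Why the counts moved was not tested.

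Leaving out 1 library gave 0 to 0 members for LPS in WT sdCAMs, 1 to 2 in WT MG and in Ccr2KO MG, 2 to 5 in Ccr2KO sdCAMs and 0 to 1 in reporter MG. It gave 0 to 2 for tdT state after LPS, 0 to 3 for its interaction, 0 to 1 for cell type by LPS in WT, 3 to 6 for that in the reporter, 3 to 4 for that in Ccr2KO, 0 to 2 for genotype in MG and 0 to 1 for genotype by BLZ945 in sdCAMs. sdCAMs against MG gave 4 to 6 in the reporter after PBS and after LPS, 4 to 5 in untreated WT and Ccr2KO mice and 5 to 6 after BLZ945 in Ccr2KO. Over all genes, calls moved by more than 1.5 times in 84 alternatives and by less in 167, for instance from 664 to 2886 at the highest for LPS in WT sdCAMs, from 174 to 2708 for cell type by LPS in WT, from 118 to 853 for LPS in reporter MG, from 3 to 105 for tdT state after PBS and from 1352 down to 0 after LPS. In MG, Ciita and the chains lay at low levels, so their values there rest on low counts.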
